A study of Nilaparvata lugens with 9 samples.

Results

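Predicted candidate miRNAs of 24, 25 or 26 nt that the brown planthopper small RNA table placed on a single precursor are described here. They were taken as the names with the prefix PC- (predicted candidate) that stood on 1 row and had a listed length of 24 to 26 nt. That gave 130 of the 767 names in the table, with 26 of 24 nt, 54 of 25 nt and 50 of 26 nt. A pair of candidates that the selection also leaves out, PC-3p-2015_2755 and PC-5p-24585_327, were shorter, so leaving them out removed none. Short-wing, untreated Nilaparvata lugens adults were sampled as whole bodies on days 1, 3 and 5 after emergence (phases 1 d, 3 d and 5 d), 3 libraries to a phase, to find miRNAs that change while females mature. The study describes the insects as females from a field population, pooled within a sample. Neither the labels nor its methods say whether the 3 libraries of a phase came from separate pools, so p-values measure only the spread between these libraries. As whole bodies were used, a change in the amount of a tissue and a change in its RNA cannot be told apart.

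MicroRNAs are cut from hairpin precursors by Drosha and Dicer, are loaded into an Argonaute protein, and recognise their targets mainly through the seed near the 5′ end. PIWI-interacting RNAs (piRNAs) are longer, arise without Dicer, and are best known from the animal germline, where they silence transposons. Primary piRNAs usually begin with uridine, and their partners in the ping-pong cycle often carry an adenosine in a fixed inner position. The gel cut of 18 to 26 nt collected the lower part of the piRNA length range only, and the pipeline kept a sequence as a candidate when the flanking genome could be folded into a hairpin.

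By reads, the candidates were dominated by PC-3p-56_129622, a longer form of a listed known miRNA, with 199971 reads. A whole known miRNA of the table, followed by 1 to 4 further bases, made up each of 11 candidates, and these held 210158 of the 243813 reads of the 130 candidates (86.2%). Of these 11, 10 were on the 3p arm. The 4 with the most reads follow with the added bases in capitals, because they carry most of the abundance of the group.
PC-3p-56_129622: tatcacagccatttttgacgtACC
PC-3p-13057_566: taatactgtcaggtaaagatgtcTA
PC-3p-13778_542: ccagatctaactcttccagctcaTT
PC-3p-72655_105: tgaacacagctggtggtatctcAGCA

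PC-3p-56_129622 extended a listed 21-nt form of miR-13b-3p, a member of the large invertebrate miR-2 family. It had 199971 reads over the 9 libraries, against 3349 reads of that shorter form, and was the 15th most abundant of the 759 distinct sequences. Its sequence matched its deposited precursor exactly. In each of the other 10 extended forms, 1 of the added bases differed from the deposited precursor. Those 10 were minor beside their parent. PC-3p-13057_566 had 9072 reads against 3540259 of miR-8-3p, PC-3p-13778_542 had 747 against 130755 of miR-750-3p, and PC-3p-72655_105 had 111 against 338673 of a miR-317-3p form. The smallest share belonged to PC-3p-295018_14, with 19 reads beside 648710 of miR-14-3p, which it extended by 4 bases. The remaining extended forms belonged to miR-9a-3p (PC-3p-149627_42, 71 reads), miR-993-5p (PC-5p-166558_36, 51 reads), miR-1-3p (PC-3p-142595_45, 45 reads), miR-2-3p (PC-3p-180499_32, 32 reads), miR-965-3p (PC-3p-222571_23, 23 reads) and miR-281 (PC-3p-354316_11, 16 reads).

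The 4 next most abundant candidates that did not contain a known miRNA are given with bases 2 to 8, the seed, in capitals.
PC-5p-1108_5177: cCGGGTTTcacagtgatctgccaga
PC-5p-1284_4412: aGGGGAGAgcaggaggcttagact
PC-5p-8224_819: tGCCGTGAtcgtctagtggttagga
PC-5p-37090_220: cGTGCTGCatcagggacttagtgact

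PC-5p-1284_4412 lay on the same listed precursor as miR-14-3p, a miRNA known from Drosophila for roles in cell death and fat metabolism, and had 7084 reads against 648710 of that opposite arm. PC-5p-37090_220 lay in the hairpin region of miR-275-3p, a miRNA that female Aedes aegypti mosquitoes need to digest blood and mature eggs. It had 1082 reads against 267839 of miR-275-3p. PC-5p-8224_819 was the more abundant listed arm of its 71-nt hairpin, with 1385 reads against 602.5 of the 22-nt PC-3p-20398_387 over all libraries. That order held in 7 of the 9 libraries and was turned round in 3 d replicate 1 (38 against 63.5 reads) and 5 d replicate 1 (51.5 against 105 reads). PC-5p-8224_819 differed from its deposited precursor only at base 1, and whether it comes from another RNA class was not tested. PC-5p-1108_5177, with 18808 reads, had no other listed sequence within 10 kb of its precursor. The hairpin of PC-3p-56_129622 also gave the 22-nt PC-5p-23640_339, with 585 reads.

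Abundance was very uneven. PC-3p-56_129622 alone held 82.0% of the candidates' reads and the 4 most abundant held 96.4%, while the other 126 shared 8878 reads. The median candidate had 19 reads over all 9 libraries. There were 6 candidates with 1000 reads or more, 19 with at least 100 but under 1000, 75 with 10 to 99 and 30 with fewer than 10. For comparison, the median was 48 reads in the 223 single-precursor candidates of 21 to 23 nt, 27 in the 129 of 18 to 20 nt and 501 in the 205 known miRNAs. The authors' own level was high for 1 candidate, middle for 63 and low for 66.

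Depth bears on every value below. The listed reads summed to between 972506 and 3184052 per library. Of the 1170 candidate entries (130 candidates in 9 libraries), 736 were 0, and no candidate with whole-number counts had an entry between 1 and 4. A listed 0 may therefore stand for up to 4 reads and is not read as absence. In 10 candidates the counts were fractional, with entries down to 2.5.

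The candidates made up a small and variable part of each library. At 1 d the share of listed reads was 1.34%, 0.692% and 1.50%, at 3 d it was 0.722%, 1.85% and 1.46%, and at 5 d it was 0.888%, 0.818% and 1.62%. The phase means were 1.18% ± 0.427 at 1 d, 1.34% ± 0.574 at 3 d and 1.11% ± 0.446 at 5 d (SD, n = 3 each). The 3 phases overlapped throughout, and the spread within a phase was larger than the distance between their means. Without PC-3p-56_129622 the means were 0.182% ± 0.0584, 0.248% ± 0.121 and 0.224% ± 0.138 in the same order of phases.

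**Figure D1:**
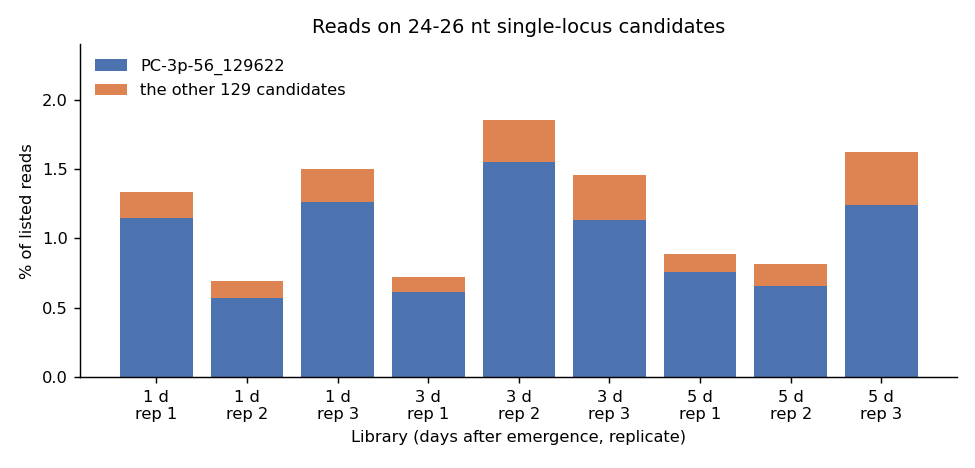
Percent of the listed reads of each library that fell on the candidates of 24 to 26 nt, stacked as PC-3p-56_129622 and the other 129, for 3 libraries at each of 1 d, 3 d and 5 d. The totals run between 0.692% and 1.85%, and each phase holds at least 1 library below 0.9% and at least 1 above 1.3%.

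The rarer candidates were seen mainly in a few libraries. At 1 d 40, 16 and 60 had any read, at 3 d 18, 93 and 85 did, and at 5 d 25, 36 and 61 did. Over a whole phase, 67 candidates had a read at 1 d, 114 at 3 d and 71 at 5 d, and 15, 16 and 15 had one in all 3 libraries of the phase. The high count at 3 d came from replicates 2 and 3, since replicate 1 had only 18. Leaving out a 3 d library left between 86 and 114, and leaving out 1 d replicate 3 left 41 at 1 d. Leaving out 5 d replicate 3 left 44 at 5 d. The count in all 3 libraries depended on the poorest library as well, and was 33 once 1 d replicate 2 was left out. The same step gave 64 for 3 d replicate 1 and 31 for 5 d replicate 1.

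Reads were found only at 1 d for 3 candidates, only at 3 d for 37 and only at 5 d for 12, and 44 had reads at all 3 phases. No such counts are given for the other classes, so they are not read as a trait of this group. The 37 seen only at 3 d had reads in replicate 2, replicate 3 or both. Their median was 10 reads and their maximum 23, so each is close to the lowest entry the table lists. PC-3p-354316_11, the extended miR-281 form, was one of them, with 10 and 6 reads in 3 d replicates 2 and 3. Among the 124 candidates with fewer than 1000 reads, these 2 libraries held 44.1% of the reads, against 26.5% of all listed reads. That comparison cannot test for an excess. The 2 libraries were singled out after their high counts were seen, and 37 of the 124 are listed only through them, which raises their share.

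The order of the libraries was much the same at equal depth. When every library was thinned at random to the 972508 rounded reads of the shallowest, and 5 reads were required, the mean number of candidates over 100 draws was 20.99, 16 and 32.9 at 1 d, 14.1, 44.7 and 36.9 at 3 d, and 12.8, 18.5 and 34.5 at 5 d. The known miRNAs counted in the same way were nearly level, between 115 and 126 of 197 distinct sequences in each library. The candidates of 18 to 20 nt largely ran the other way, with 27.7, 47 and 22.1 at 1 d, 47.5, 22.9 and 25.2 at 3 d, and 52.6, 36.6 and 31.01 at 5 d. The candidates of 21 to 23 nt lay between 74 and 97.5 of 223.

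**Figure D2:**
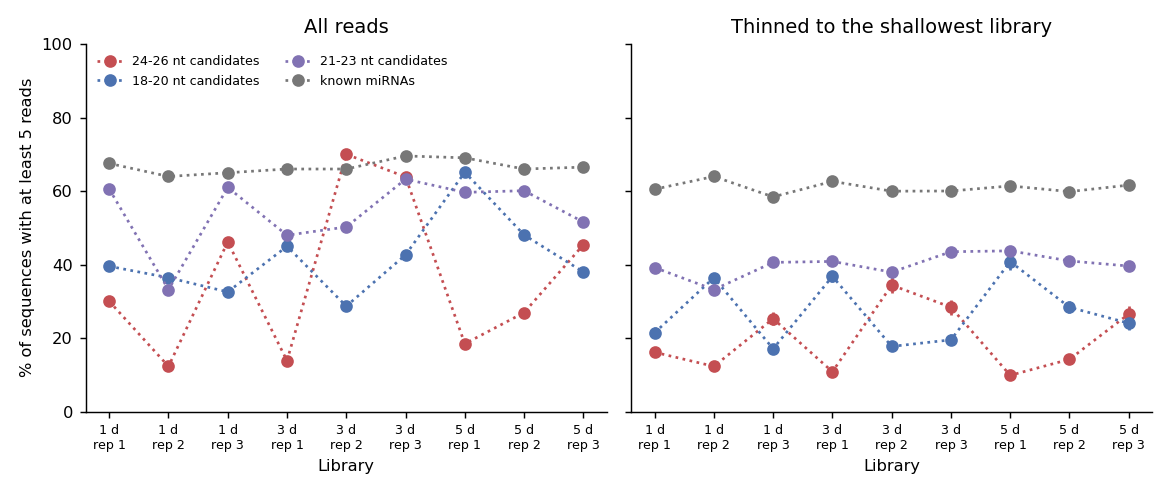
Percent of sequences with at least 5 reads in each library, for candidates of 24 to 26 nt, 18 to 20 nt and 21 to 23 nt and for known miRNAs, from all reads (left) and after thinning to the shallowest library (right, mean of 100 draws with their SD). The known miRNAs stay nearly level, while within each phase of the right panel the 24 to 26 nt and 18 to 20 nt candidates move in opposite directions; on the left, 1 d replicates 1 and 2 are the exception, with both classes lower in replicate 2 (16 against 39 and 47 against 51).

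The same opposition held in reads. The candidates of 18 to 20 nt took 1.57% of the listed reads in 1 d replicate 2, 0.630% in 3 d replicate 1, 0.421% in 5 d replicate 1 and 0.403% in 5 d replicate 2. Those were the 4 libraries with the smallest share on the 24 to 26 nt candidates, between 0.692% and 0.888%. In the other 5 libraries the 18 to 20 nt share was between 0.173% and 0.242%. Every phase held libraries of both kinds, so the length profile differed within phases and its part in the values of single candidates was not tested.

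The first base set the 24 to 26 nt candidates beside the other classes. A uridine (T in the table) stood at base 1 in 100 of 130, or 76.9% (95% Wilson interval 69.0% to 83.3%). The share was 53.8% (47.3% to 60.2%) in the candidates of 21 to 23 nt, 39.5% (31.5% to 48.2%) in those of 18 to 20 nt and 54.6% (47.8% to 61.3%) in known miRNAs. In the 9 candidates of 24 to 26 nt that the table placed on several precursors it was 77.8% (45.3% to 93.7%), close to that of the 130. These intervals treat each name as 1 draw and cover counting error only, and no test of the difference was run. Within the group the share was 50.0% at 24 nt, 79.6% at 25 nt and 88.0% at 26 nt. It was 91 of 119 among candidates that do not contain a known miRNA and 9 of 11 among those that do, and it was near equal on the 3p arm (76.7%) and the 5p arm (77.1%). Only 4 of the 9 candidates with reads in all 9 libraries began with U. Counted by reads, 88.0% of the group's reads began with U, against 88.8% in the 21 to 23 nt candidates and 84.4% in known miRNAs, and PC-3p-56_129622 carried most of them. In the 119 candidates that do not contain a known miRNA, 15.6% of the reads began with U.

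An adenosine at base 10 was present in 44 candidates (33.8%), against 19.7% of the 21 to 23 nt candidates, 27.1% of the 18 to 20 nt candidates and 19.0% of known miRNAs. The share was 11.1% in the 9 candidates of 24 to 26 nt on several precursors. Within the group it was 23.1% at 24 nt, 42.6% at 25 nt and 30.0% at 26 nt. These differences were not tested. The adenosine was about as common with U at base 1 (33 of 100) as without (11 of 30). Both features occurred together in 25 of 223 candidates of 21 to 23 nt, 15 of 129 of 18 to 20 nt and 24 of 205 known miRNAs. They did so in 1 of the 9 candidates of 24 to 26 nt on several precursors. A candidate with both and one with the adenosine alone follow, with bases 1 and 10 in capitals.
PC-5p-134097_48: TcatcgttcActgaccgatctgtggc
PC-5p-1108_5177: CcgggtttcAcagtgatctgccaga

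Precursor folding energy varied widely. The deposited folding energy (dG, more negative for a more stable hairpin, with no unit given in the table) was -111.3 for PC-5p-151815_41, -102.9 for PC-5p-134097_48 and -99.2 for PC-5p-193172_29. The highest dG values were those of PC-5p-647056_5 at -15.2, PC-3p-90991_80 at -15.5 and PC-3p-258460_18 at -15.7. These values are not scaled by hairpin length. The 3 hairpins with the lowest dG were 145, 130 and 128 nt long, in the order given. Those with the highest were 77, 69 and 93 nt long, and the median of the candidates was 90 nt. The median dG of the 130 was -28.85, with a 95% rank interval of -32.2 to -27.6. It was -23.9 in the 9 of the same length on several precursors, -34.2 in candidates of 21 to 23 nt, -22.0 in those of 18 to 20 nt and -33.9 in known miRNAs. There were 14 candidates at or below -50 and 15 above -20. The median was -37.3 in the 11 extended known miRNAs and -28.2 in the other 119. Per 100 nt of hairpin, the median dG was -34.3 in the 130 and -32.3 in the 9 on several precursors. It was -39.1 in candidates of 21 to 23 nt, -26.9 in those of 18 to 20 nt and -40.9 in known miRNAs.

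**Figure D3:**
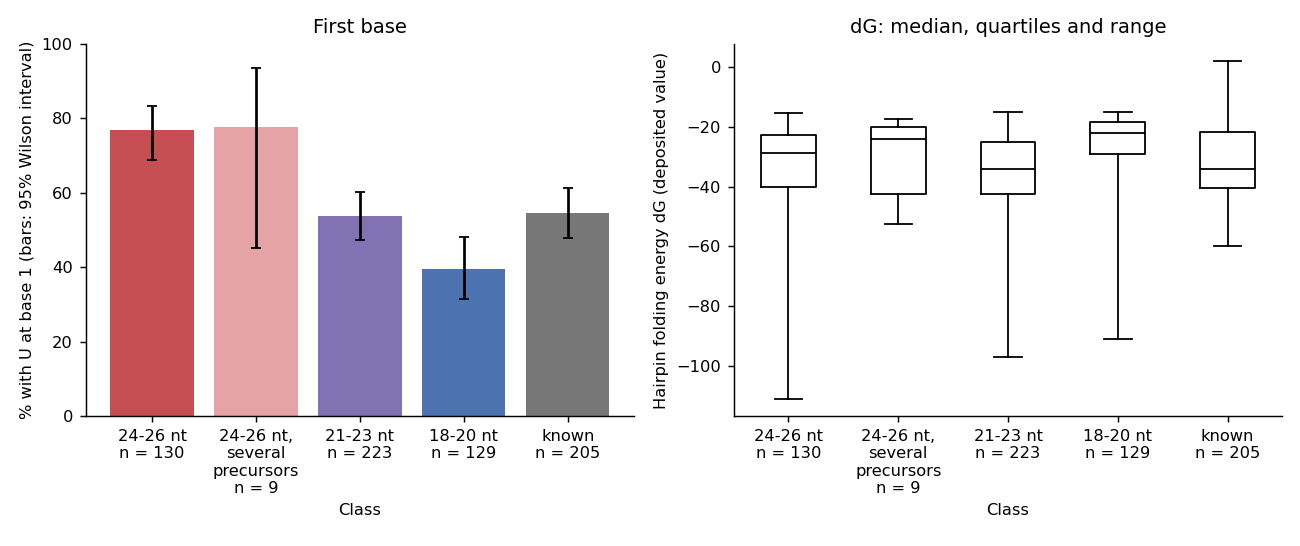
Left, percent of sequences with U at base 1 in candidates of 24 to 26 nt on 1 precursor (n = 130) and on several (n = 9), of 21 to 23 nt (n = 223) and 18 to 20 nt (n = 129) and in known miRNAs (n = 205), with 95% Wilson intervals; right, deposited hairpin folding energy of the same classes as median, quartiles and range. U stands at base 1 in 76.9% and 77.8% of the candidates of 24 to 26 nt on 1 and on several precursors, and the median dG of the 130 is -28.85, between those of the 21 to 23 nt and the 18 to 20 nt candidates.

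There were 60 candidates on the 3p arm and 70 on the 5p arm, whereas 125 of 223 candidates of 21 to 23 nt and 69 of 129 of 18 to 20 nt were 3p. So were 6 of the 9 candidates of 24 to 26 nt on several precursors and 113 of 205 known miRNAs. The extended forms were 3p in 10 of 11 cases and the other candidates in 50 of 119. The 3p candidates held more reads, 213617 against 30196 on the 5p arm, almost all from PC-3p-56_129622. The precursors lay on 124 scaffolds, 81 on the plus and 49 on the minus strand (62.3% plus). The plus strand held 7 of the 9 candidates of 24 to 26 nt on several precursors. It held 107 of 223 candidates of 21 to 23 nt, 67 of 129 of 18 to 20 nt and 68 of the 158 known miRNAs with a listed strand. These differences were not tested. Only 20 of the 130 had another listed miRNA within 10 kb on the same scaffold. The genome build of the scaffolds was not stated, and gene annotation was not used here. In 91 candidates the mature sequence matched its precursor exactly, and in 39 it differed by 1 base.

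Seeds were seldom shared. The 130 candidates had 123 distinct seeds, 14 candidates shared theirs with a known miRNA of the table and 14 with another candidate. The 14 were the 11 extended forms and PC-5p-89103_82, PC-3p-282883_15 and PC-5p-565392_5. PC-5p-89103_82 carried the miR-317-3p seed on a different sequence, shown with its seed in capitals. PC-3p-282883_15 (15 reads) matched a miR-6497 form, and PC-5p-565392_5 (5 reads) matched a miR-1175-3p form, in bases 2 to 8.
PC-5p-89103_82: tGAACACAcactagtgacatgatgtc
PC-3p-72655_105: tGAACACAgctggtggtatctcagca

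Another 12 candidates overlapped each other by at least 16 bases although each was listed on its own scaffold. A set of 3 was PC-5p-64263_121 (129 reads), PC-5p-71638_107 (107 reads) and PC-5p-118039_57 (57 reads), whose sequences differ at their ends and are given with the seed in capitals. All 3 also overlapped PC-5p-142923_44 and PC-5p-191217_29, listed candidates outside the group. The paper counts PC-5p-142923_44 among its differentially expressed miRNAs. Reads of such near copies may have been divided between them, so their separate counts are uncertain.
PC-5p-64263_121: aAATGTTCctctgatcagctgaatt
PC-5p-71638_107: aATGTTCCtctgatcagctgaatc
PC-5p-118039_57: aATGTTCCtctgatcagctgaatt

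The seed in capitals moved by 1 base between the first and the other 2 of that set. The other sets were PC-3p-154349_40 (40 reads) with PC-3p-273255_16 (16 reads) and PC-3p-433649_7 (7 reads), PC-3p-76084_99 with PC-3p-128197_51, PC-5p-199837_27 with PC-5p-330652_12, and PC-5p-289095_15 with PC-5p-596168_5. PC-3p-76084_99 had 152 of its 176 reads in 5 d replicate 3 and none in the other 5 d libraries.

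Change between phases was tested with edgeR over all 341 sequences that passed its filter on low counts, using trimmed-mean (TMM) scaling and all 9 libraries. Only 30 of the 130 candidates passed the filter, and the other 100 had at most 176 reads each. Among the 30, 21 had a 0 in at least 1 library. At a Benjamini-Hochberg adjusted p below 0.05, no candidate was called between 3 d and 1 d, between 5 d and 1 d, between 5 d and 3 d or over the 3 phases together. Over all sequences the same test called 0 (0%), 5 (1.47%), 0 (0%) and 4 (1.17%). At an unadjusted p below 0.05 in edgeR, 0, 1, 1 and 0 candidates passed, against 8.5%, 11.4%, 2.35% and 8.21% of all tested sequences. DESeq2 and limma also called no candidate, and their numbers over all sequences are not given.

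The median fitted log2 fold change of the 30 candidates was 0.27 for 3 d over 1 d, -0.46 for 5 d over 1 d and -0.53 for 5 d over 3 d. Over all 341 sequences it was 0.06, 0.05 and -0.04. The median standard error of a candidate was 1.42, 1.44 and 1.42 on the log2 scale, against 0.63 for all tested sequences in each comparison, so changes of the size of those medians were not detectable for a typical candidate. Among the 30, candidates whose libraries did not overlap between phases were few, with 1 higher and 0 lower for 3 d against 1 d (all sequences, 6.74% higher and 3.52% lower), 1 higher and 1 lower for 5 d against 1 d (10.9% and 7.62%), and none for 5 d against 3 d (3.23% and 2.64%). Of the 100 that did not pass the filter, 1 did not overlap, PC-3p-154349_40, with 0 reads in each 5 d library, against 5, 19 and 9 reads at 3 d. No share is given for the other sequences that failed the filter.

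**Figure D4:**
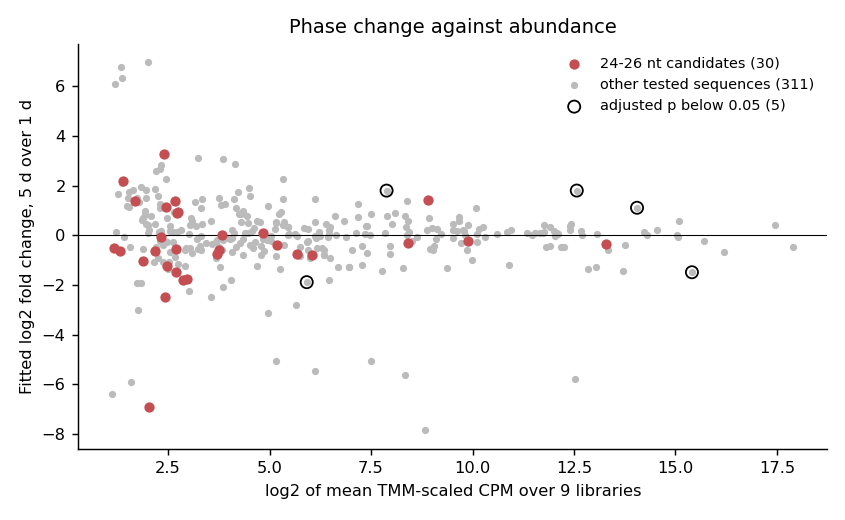
Fitted log2 fold change of 5 d over 1 d against the log2 mean TMM-scaled CPM for 341 tested sequences, with the 30 candidates of 24 to 26 nt filled in red and the 5 called sequences ringed. No candidate is ringed, and the lowest red point, PC-5p-80112_94, had 0 reads in every 5 d library, so its fitted value is no bound on a fold.

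PC-3p-56_129622 had 12063, 6768 and 13752 TMM-scaled CPM (reads scaled to one library size) at 1 d, 5240, 15500 and 10790 CPM at 3 d, and 7235, 6268 and 12303 CPM at 5 d. The phases overlapped, and the lowest and the highest library were both at 3 d. The mean was 8602 ± 3241 CPM at 5 d and 10861 ± 3644 CPM at 1 d (SD, n = 3 each), a fitted log2 fold change of -0.34 (SE 0.43, edgeR adjusted p = 0.858). Its share of the reads of the extended and the shorter miR-13b form together stayed between 95.9% and 98.9% in all 9 libraries.

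PC-5p-1108_5177 had 888, 820 and 1153 CPM at 1 d, 463, 1417 and 1288 CPM at 3 d, and 629, 708 and 1109 CPM at 5 d. All phases overlapped, with 3 d replicate 1 lowest, and the log2 fold change of 5 d over 1 d was -0.23 (SE 0.42, edgeR adjusted p = 0.891). PC-5p-1284_4412, the arm opposite miR-14-3p, had 422, 234 and 359 CPM at 1 d, 235, 395 and 595 CPM at 3 d, and 239, 255 and 321 CPM at 5 d. Its phases overlapped as well, and its log2 fold change of 5 d over 1 d was -0.32 (SE 0.38, edgeR adjusted p = 0.858).

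The extended miR-8-3p form was high in a single library. PC-3p-13057_566 had 323, 147 and 395 CPM at 1 d, 83.2, 510 and 539 CPM at 3 d, and 235, 295 and 1774 CPM at 5 d. The phases overlapped, and 5 d replicate 3 stood above the rest. The fitted log2 fold change of 5 d over 1 d was 1.41 (SE 0.89, edgeR adjusted p = 0.614), and -0.17 without 5 d replicate 3. As a share of its reads and those of miR-8-3p together, it was 0.638% in that library and between 0.0694% and 0.286% in the other 8.

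**Figure D5:**
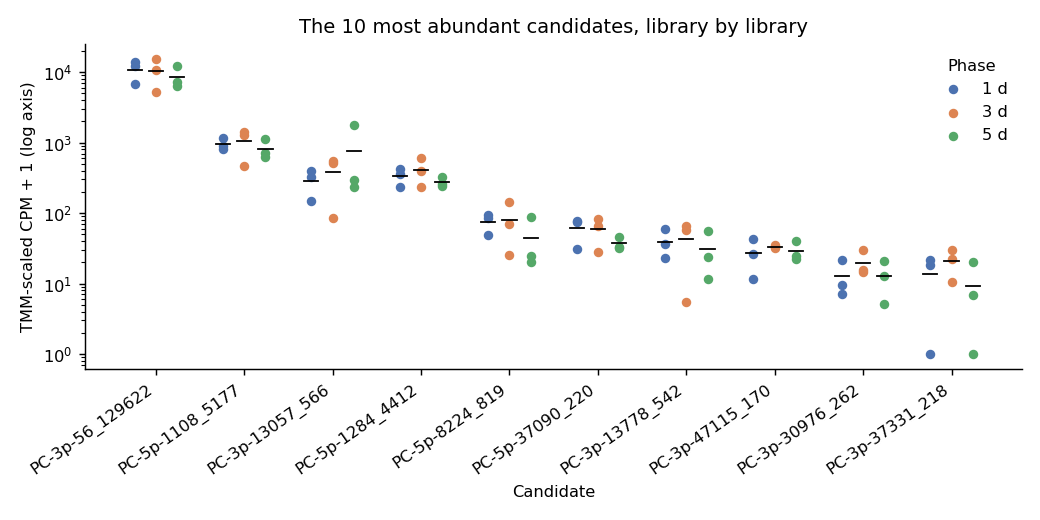
TMM-scaled CPM plus 1, on a log axis, of the 10 candidates with the highest mean, with 1 point per library and a bar at the mean of each phase (1 d, 3 d, 5 d from left to right). The phases overlap for each of the 10, and PC-3p-13057_566 has a single high library of 1774 CPM at 5 d.

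The other candidates among the 10 most abundant behaved alike. PC-5p-8224_819 lay between 19.4 and 142 CPM, PC-5p-37090_220 between 26.6 and 82.2 CPM and PC-3p-13778_542 between 4.55 and 65.6 CPM over the 9 libraries. PC-3p-47115_170 lay between 10.5 and 41.6 CPM, PC-3p-30976_262 between 4.14 and 28.5 CPM and PC-3p-37331_218 between 0 and 28.7 CPM. Each overlapped between all 3 phases.

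Among the rarer candidates, those with the smallest p over the 3 phases rested on few reads. PC-5p-80112_94 had 8, 0 and 43 reads at 1 d, 0, 18 and 25 reads at 3 d, and 0, 0 and 0 reads at 5 d. It was at 0 in all 5 d libraries, but also in 1 library at each of the other phases, so the phases overlapped. It had the smallest p of the 30, with an unadjusted p of 0.0266 for 5 d over 1 d and an edgeR adjusted p of 0.363. Because a listed 0 may hide a few reads, no fold is given.

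PC-5p-193172_29 had 5, 0 and 0 reads at 1 d, 6, 9 and 9 reads at 3 d, and 5, 6 and 10 reads at 5 d. On the CPM scale both later phases lay above 1 d without overlap. For 5 d that was a near tie, since replicate 1 of 5 d and replicate 1 of 1 d both had 5 reads, the lowest entry listed, and 1.88 CPM. The log2 fold change was 2.17 for 5 d over 1 d (SE 1.42, edgeR adjusted p = 0.614) and 2.27 for 3 d over 1 d (SE 1.42, edgeR adjusted p = 0.877). It was the only candidate of the 130 on the study's list of differentially expressed miRNAs, which was drawn from these same libraries and is no independent evidence. With the test that the study's methods name for pairs of phases, on its normalized counts, the unadjusted p for 3 d over 1 d was 0.0249.

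PC-3p-80684_93 had 16.6, 7.29 and 14.9 CPM at 1 d, 0, 7.75 and 8.40 CPM at 3 d, and 1.88, 5.01 and 4.33 CPM at 5 d. The 5 d libraries lay below those of 1 d without overlap, while 3 d overlapped both. That order rested on few reads, with 6 in 1 d replicate 2, against 5, 12 and 7 at 5 d. The log2 fold change of PC-3p-80684_93 for 5 d over 1 d was -1.79 (SE 1.14, edgeR adjusted p = 0.614). Its sequence overlapped another listed candidate, PC-3p-92948_78, so its count may include reads of that one. PC-5p-193856_28 had 0, 0 and 2.01 CPM at 1 d, 0, 10.9 and 11.4 CPM at 3 d, and 0, 20.5 and 3.10 CPM at 5 d. The phases overlapped at 0, and the log2 fold change of 5 d over 1 d, 3.27 (SE 2.07, edgeR adjusted p = 0.614), ran between 0.99 and 7.08 when single libraries were left out. It overlapped another listed candidate, PC-3p-12814_573, so its count may include reads of that sequence.

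Of the 3 candidates with the lowest dG, PC-5p-193172_29 had reads in 7 libraries, as given above, and the other 2 in 3 each. PC-5p-151815_41 had 23 and 12 reads in 3 d replicates 2 and 3, 6 reads in 5 d replicate 3 and none elsewhere. PC-5p-134097_48 had 29, 11 and 8 reads in the same 3 libraries and none elsewhere. Those 3 libraries had the largest numbers of candidates with a read, at 93, 85 and 61. Of the 3 with the highest dG, PC-3p-90991_80 was the most often seen. It had 33, 0 and 0 reads at 1 d, 0, 24 and 33 at 3 d, and 15, 16 and 21 at 5 d, and its phases overlapped.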

How the data were processed

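Small RNA of 18 to 26 nt was sequenced from 9 whole-body libraries, 3 at each phase. According to the study's methods, the authors trimmed and filtered the reads with ACGT101-miR, removed other RNA classes, aligned to miRBase insect precursors with length variation and 1 mismatch allowed, and folded flanking genome sequence for candidates. The labels describe a poly(A) mRNA protocol, which does not match small RNA libraries. The raw columns, as deposited by the authors, are estimated counts of reads per miRNA, some fractional, and the deposited normalized columns are those counts multiplied by 1 factor per library (normalized signal). The authors' table also gives a hairpin folding energy (dG, used as a score), a GC percent and a length. It holds 905 entries, 767 names and 759 sequences.

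Counts were rounded and fitted over all distinct sequences with edgeR 4.0.16 (quasi-likelihood F-test, TMM factors, filterByExpr by phase, R 4.3.3), with Benjamini-Hochberg adjustment and a threshold of 0.05. DESeq2 1.42.0, limma 3.58.1, other scalings and filters, a replicate block and leaving out each library were alternatives. The scripts were tested on simulated data. Shares of names with U at base 1 have 95% Wilson intervals, which treat each name as 1 draw and cover counting error only. Reads carry no molecular identifiers. The members, classes and tests were chosen with earlier results of these data known. Candidates are named in the text if they were among the 10 with the highest mean CPM, were called, had 1 of the 5 smallest p over the 3 phases, were on the study's list, had 1 of the 3 lowest or highest dG, shared a known seed, or overlapped another candidate. PC-3p-86339_85 was added after its values were seen. Thinning used a fixed seed and 100 draws. The requirement of 5 reads in thinning, the counts of candidates seen in any library and the overlap under other scalings were chosen after seeing the data.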

Additional observations from a re-analysis of the deposited data

How the results depend on the processing

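Leaving out any 1 library, changing the scaling, filtering at 10 CPM, DESeq2 and limma each called 0 candidates in each comparison. The numbers called over all sequences in these settings are not given, so these counts are not read as a trait of the candidates. No paired analysis was kept as the main one. Same-numbered libraries deviated together, at r over 0.1, in 5 of 9 pairs (r between -0.39 and 0.42). The other same-numbered pairs had r of 0.067, 0.024, -0.19 and -0.39. Differently numbered libraries of different phases had r between -0.51 and 0.50, so these values do not show a pairing by number. With the replicate block, for which the number over all sequences is not given either, 0 candidates were called in each comparison. The median log2 fold change of the tested candidates for 3 d over 1 d was then -0.0073. That median ran between -0.0032 and 0.85 when single libraries were left out, negative only without 3 d replicate 3. Without the filter on low counts, 1 candidate was called for 3 d over 1 d, 3 for 5 d over 1 d and 2 over the 3 phases. These were PC-3p-86339_85 (0 in all 3 d and 5 d libraries, 0, 26 and 107 reads at 1 d), and PC-3p-76084_99 and PC-3p-13057_566, which were both high in 5 d replicate 3 alone. All sequences called without the filter were 19, 26 and 27. The kind of test the study's methods name, at an unadjusted p, passed 1 candidate for 3 d over 1 d and 1 for 5 d over 1 d. It was run on all 759 sequences, without the study's limits on abundance and fold. For 3 d over 1 d it passed 29 of the 759. The number of all sequences passing for 5 d over 1 d is not given, so that count is not read as a trait of the candidates. With edgeR at an unadjusted p, 1 candidate passed for 5 d over 1 d and 1 for 5 d over 3 d. With the pair of left-out candidates added, 1 was called for 5 d over 1 d.

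The log2 fold change of PC-3p-13057_566 for 5 d over 1 d was -0.17 without 5 d replicate 3 (range over single left-out libraries -0.17 to 1.81), and the cause was not tested. Candidates with a read in every library of a phase numbered 15 to 33 at 1 d, 17 to 64 at 3 d and 17 to 31 at 5 d when single libraries were left out. In any library they numbered 41 to 67, 86 to 114 and 44 to 68. A read in any library gave 67, 114 and 71. At equal depth with 5 reads required, 38.1, 57.9 and 40.6 were present in any library, and 10.6 in every 3 d library. The share of listed reads ran between 1.01% and 1.42% at 1 d, 1.09% and 1.66% at 3 d, and 0.853% and 1.26% at 5 d with single libraries left out, and was 0.182%, 0.248% and 0.224% without PC-3p-56_129622. U at base 1 was 44.4% in the 9 candidates with reads in all libraries and 88.0% of reads (88.8% in the 21 to 23 nt candidates and 84.4% in known miRNAs). The 3p arm held 56.7% of the 30 tested candidates, 55.6% of those 9 and 87.6% of reads. The median dG was -35.1 in those 9 and -39.1 weighted by reads.

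The table's lowest entry of 5 reads in most candidates limits every comparison of rare ones, which cannot be told apart from 0 below it. Only 30 candidates could be tested, with a median standard error over 1.4 on the log2 scale.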
